A study of Mus musculus with 2 samples.

Results

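Mir3473b, Mir3473e, Mir1934 and Mir1946a are annotated mouse miRNA hairpins whose letters recur in many other transcripts. Short reads matching these 4 of the 2202 annotated hairpins were examined in J1 mouse embryonic stem cells. All sequences of 15 to 17 nt with an exact full-length sense match in 1 of the 4 hairpins were taken, and those that other genes also hold were not removed. This gave 38 of the 96471 distinct sequences of that length, 29 of them read in the DMSO library and 28 in the SB431542 library. The hairpins were chosen by the measured reads that match them and by how many other genes hold those sequences, so both are given as a description and not as a finding.

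The J1 line, of strain 129S4/SvJae, was grown on gelatin with 1000 U/mL of leukaemia inhibitory factor, which keeps mouse stem cells undifferentiated. One group received 3 µM SB431542, an inhibitor of the type I receptors of TGF-beta, activin and Nodal, for 24 h, and the other received the same volume of its solvent DMSO for 24 h. There was 1 library for each treatment. No difference between them could be checked on replicates, and none was tested. Intervals are 95% and cover counting error only, since reads without molecular identifiers are not independent molecules. Sequences of up to 17 nt were available, so a full-length mature miRNA could not be seen. The reads of 15 to 17 nt, 990296 with DMSO and 517535 with SB431542, serve as the total on which values are expressed per 1000000 reads (RPM). This total covers these lengths only and does not measure how deeply a library was sequenced. Of 8 hairpins of the miR-290 cluster, which marks mouse embryonic stem cells, 6 had reads in both libraries (39511 and 10506 in all). Nearly all of these reads came from 1 hairpin, Mir293 (38937 with DMSO and 10364 with SB431542). None of the 5 hairpins of miR-302 and miR-367 had any. Hairpins listed for fibroblasts and feeder cells had 236 and 43 reads (6 and 4 of 8 hairpins), with Mir214 and Mir145a at 0. Most of these reads were of Mir152 (170 and 32) and Mir143 (55 and 8). Those typical of blood cells had 7 and 2.

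A miRNA is cut from a hairpin by Drosha and Dicer, and the bases near its 5′ end, the seed, pair with target messenger RNAs. Some annotated hairpins overlap short interspersed elements (SINEs), repeats that RNA polymerase III transcribes and that lie in great numbers in introns and untranslated regions. In the mouse the main families are B1, which derives from 7SL RNA, and B2, which derives from a tRNA. The first letters of B2 are those of miR-3473b, and the inner part of B1 holds letters close to those most read in Mir1946a. These family names are background knowledge, as no repeat annotation was used here.

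The hairpins are shown from the GENCODE M21 transcripts of GRCm38, 5′ to 3′, with the most read sequence of each in capitals, to show where the reads lie.
Mir3473b: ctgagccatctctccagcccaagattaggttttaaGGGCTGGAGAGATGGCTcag
Mir3473e: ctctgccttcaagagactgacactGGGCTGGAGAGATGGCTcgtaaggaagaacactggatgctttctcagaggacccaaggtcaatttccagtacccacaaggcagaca
Mir1934: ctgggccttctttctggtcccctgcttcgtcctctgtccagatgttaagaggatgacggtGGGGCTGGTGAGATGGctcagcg
Mir1946a: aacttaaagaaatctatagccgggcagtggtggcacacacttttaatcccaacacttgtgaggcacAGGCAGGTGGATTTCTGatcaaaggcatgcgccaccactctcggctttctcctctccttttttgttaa
Mir3473b lies on chromosome 10 at 41670739 to 41670793 (plus strand), opposite an intron of Ccdc162. Mir3473e, on chromosome 5 at 31667231 to 31667340 (minus strand), is in an intron of Rbks, which encodes ribokinase. No other annotated gene overlaps Mir1934, on chromosome 11 at 69663043 to 69663125 (plus strand), or Mir1946a, on chromosome 16 at 32267450 to 32267583 (minus strand).

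No mature miRNA of Mir1946a was in the RefSeq set used here. The mature miRNAs of RefSeq (GRCm38.p6) for the other hairpins are printed with the seed, bases 2 to 8, in capitals. Their starts can be compared with those of the reads.
miR-3473b: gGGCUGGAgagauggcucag
miR-3473e: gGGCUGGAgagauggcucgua
miR-1934-5p: uCUGGUCCccugcuucguccucu
miR-1934-3p: aGGAUGACgguggggcugguga
The first pair share the seed GGCUGGA, while each arm of miR-1934 has a seed of its own.

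Nearly all reads of the set came from a single run of letters that Mir3473b and Mir3473e share. The 2 hairpins had 8 sequences in common, with 2151 reads in the DMSO library and 1696 in the SB431542 library. Those were 98.9% of the reads of Mir3473b and 99.9% of those of Mir3473e over both libraries, so the 2 are in effect 1 measurement. Only 28 and 14 reads matched Mir3473b without Mir3473e, and 4 and 1 the reverse. Mir1934 and Mir1946a shared no sequence with them or with each other.

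Mir3473b had 2179 reads with DMSO and 1710 with SB431542, or 2200 and 3304 RPM, higher in the SB431542 library by a log2 ratio of 0.59 (0.49 to 0.68). Mir3473e had 2155 and 1697 reads, 2176 and 3279 RPM (log2 0.59, 0.50 to 0.68). Mir1934 had far fewer, 125 and 67 reads, which came to 126 and 129 RPM and a ratio near 1 (log2 0.04, -0.41 to 0.48). Mir1946a had the fewest, 34 and 32 reads or 34.3 and 61.8 RPM (log2 0.85, 0.11 to 1.59). The SB431542 library thus had the higher value for the miR-3473 pair and Mir1946a, with little between the libraries for Mir1934. The 38 sequences together had 2342 and 1810 reads, which is 0.236% of the reads of 15 to 17 nt with DMSO and 0.350% with SB431542 (log2 0.56, 0.48 to 0.65).

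**Figure D1:**
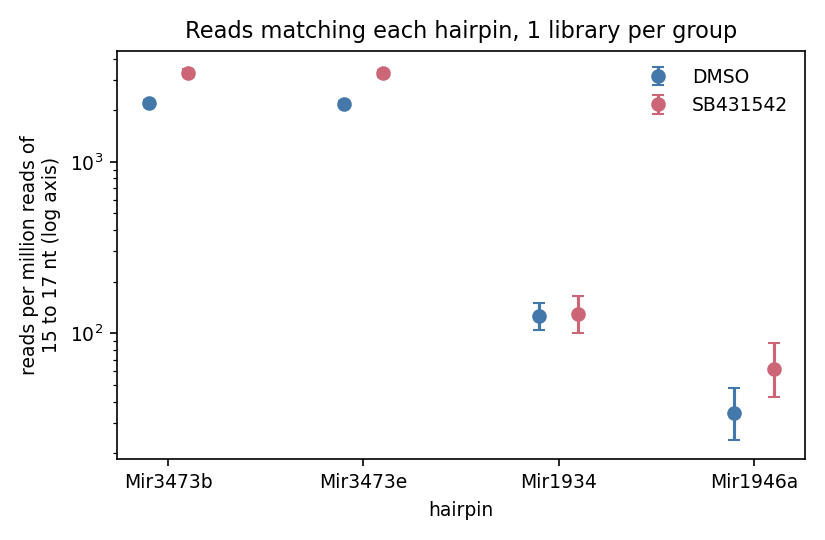
RPM, on the total of 15 to 17 nt reads (log axis), for each hairpin in the DMSO and SB431542 libraries, 1 library per group. Bars are 95% Poisson intervals of the read counts and are hidden by the points of Mir3473b and Mir3473e, which lie at 2200 and 2176 with DMSO and at 3304 and 3279 with SB431542.

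None of the 4 hairpins was 2-fold apart on this scale. Among the 92 hairpins with at least 50 reads over both libraries, matched in the same way, 1.09% were at least 2-fold higher with SB431542 and 18.5% at least 2-fold lower, and all 4 hairpins were among the 92. The median log2 ratio of the 92 was -0.32. It was -0.69 for the 56 with no read from a sequence in more than 5 other genes, of which 10 lay above 0. The other 36 had reads from repeated letters, but 17 of them hold the leading sequence of the miR-3473 pair and repeat its value. The remaining 19, among which some again share all their reads, had a median of 0.23, with 16 above 0 and 3 below. The miR-3473 pair, at 0.59, lay above that median, and no test of the difference was made. The scale matters for the call. Another total is the reads of miRNA hairpins whose sequences lie in at most 5 other genes and in no other small RNA. That total was itself smaller with SB431542 (78376 and 22085 reads). Mir293, with 38937 and 10364 reads (log2 -0.97), weighs heavily in it. Per read of this total, 3 of the 4 hairpins were at least 2-fold higher. Mir3473b then stood at 1.48, Mir3473e at 1.48, Mir1946a at 1.74 and Mir1934 at 0.93 on the log2 scale. On that total 40 of the 92 hairpins were at least 2-fold higher and 2 lower.

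**Figure D2:**
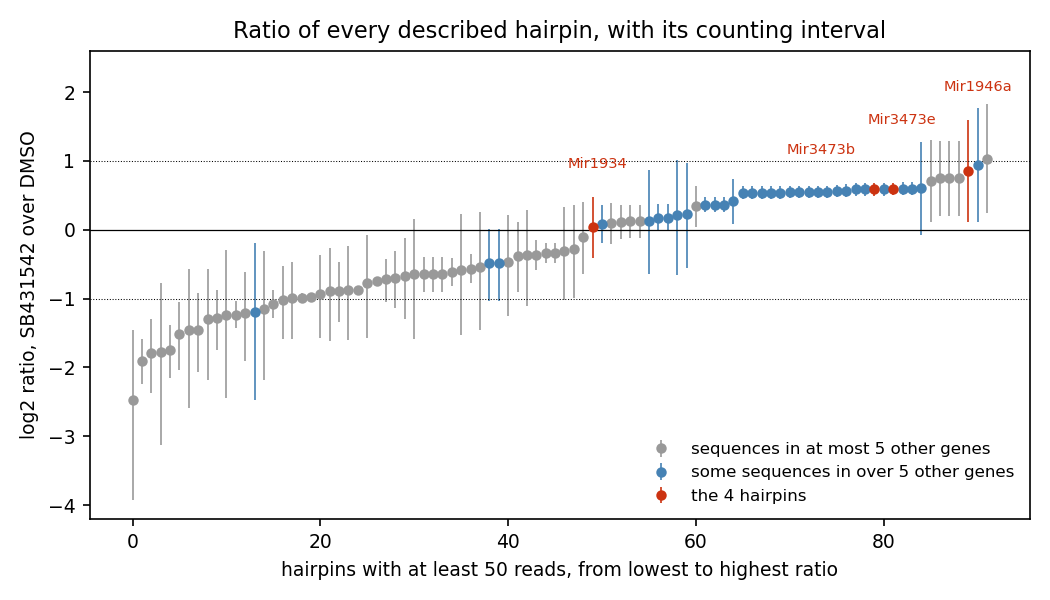
Log2 ratio of SB431542 to DMSO in RPM for the 92 hairpins with at least 50 reads, from lowest to highest, with 95% counting intervals and dotted lines at 2-fold. Red points are the 4 hairpins, blue points other hairpins with reads from sequences in more than 5 other genes, and grey points the rest. Mir3473b and Mir3473e, at 0.59, sit in a row of blue points with nearly the same value, which share their reads.

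The reads of the miR-3473 pair began at a single base. In Mir3473b position 36 of 55 was the start of 2134 of 2179 reads with DMSO (97.9%, 97.2 to 98.5, Clopper-Pearson) and of 1690 of 1710 with SB431542 (98.8%, 98.2 to 99.3). The same letters begin at position 25 of 110 in Mir3473e, where 2134 of its 2155 reads and 1690 of its 1697 reads started. Both are the first base of the annotated mature miRNA. They lie toward the 3′ end of Mir3473b and toward the 5′ end of Mir3473e. The arm of Mir3473b opposite the reads, whose letters pair with them, had 0 reads in both libraries, which allows up to 3 reads, or 3.03 RPM with DMSO and 5.80 with SB431542.

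Reads of Mir1934 did not start where its mature miRNAs do. None began at the start of miR-1934-5p in either library, and a single SB431542 read began at position 50, that of miR-1934-3p. That read, aGGATGACggtggggc (seed letters in capitals), was the only one of the 38 sequences found in no other gene. Of the 125 DMSO reads of Mir1934, 80 began at position 61 (64.0%, 54.9 to 72.4) and 42 at position 62 (33.6%, 25.4 to 42.6). With SB431542 34 of 67 began at position 61 (50.7%, 38.2 to 63.2) and 31 at position 62 (46.3%, 34.0 to 58.9). In Mir1946a 30 of 34 reads with DMSO and 23 of 32 with SB431542 began at position 67 of 134. A further 4 and 8 reads began between positions 18 and 22. The hairpin Gm24824 held all of these sequences and Mir1946b held 1 and 6 of the reads. The starts in Mir1946a could not be compared with a mature miRNA of its own. The 1 and 2 reads from position 19 match the first letters of the mature miRNA of Mir1946b.

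**Figure D3:**
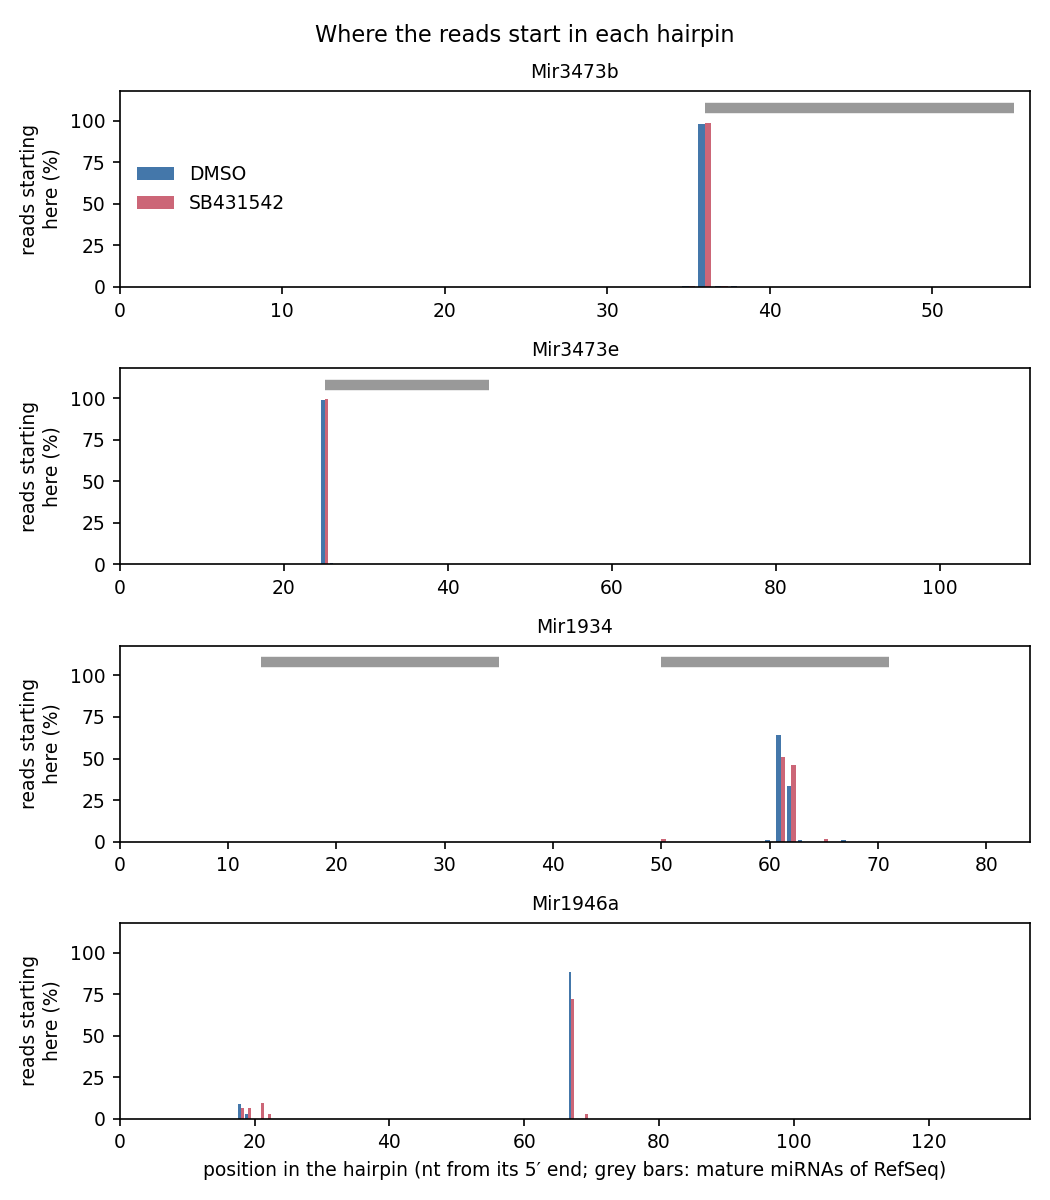
Share of the reads of each hairpin that start at each position (% of the hairpin's reads in that library; position in nt from the 5′ end of the hairpin), in the DMSO and SB431542 libraries. Grey bars mark the mature miRNAs of RefSeq, and the set used here had none for Mir1946a. The starts of Mir3473b and Mir3473e coincide with the first base of the grey bar, at positions 36 and 25, and those of Mir1934, at positions 61 and 62, lie within the bar of miR-1934-3p.

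The most read sequences are set beside close relatives, with the base that differs within each family in capitals, to show that the reads of Mir1934 and of the miR-3473 pair are variants of the same letters.
Mir3473b and Mir3473e, 17 nt: gggctggAgagatggct
Mir1934, same start: gggctggTgagatggct
Mir1934, 1 base earlier: ggggctggTgagatggc
miR-3473 letters, 1 base earlier, in none of the 4 hairpins: ggggctggAgagatggc
Mir1946a: aggcaggTggatttctg
relative of the Mir1946a sequence, in none of the 4 hairpins: aggcaggCggatttctg
Counted from 1 at the 5′ end of the first sequence, the second carries the substitution A8T. Counted likewise from the Mir1946a sequence, its relative carries T8C.

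The leading 17 nt sequence had 1144 reads in the DMSO library and 845 in the SB431542 library (log2 0.50, 0.37 to 0.63). Its 16 nt form, without the last base, had 807 and 720 reads (log2 0.77, 0.62 to 0.92), and the 15 nt form 183 and 125 (log2 0.39, 0.05 to 0.72). All of these forms were higher with SB431542 in RPM, the 16 nt form the most. The 509 sequences of 60 to 70% GC with at least 50 reads, a range that includes these forms, had a median log2 ratio of -0.01, and the 2446 sequences of any GC content with at least 50 reads one of -0.09. In bins of GC content, at a minimum of 20 reads, the median ratio rose with GC from 30% upward. It was -0.72 at 30 to 40% (249 sequences) and 0.39 at 90 to 100% (176 sequences). Of the 2446 sequences with at least 50 reads, 6.75% were at least 2-fold higher with SB431542 and 13.7% at least 2-fold lower. None of the 3 forms was 2-fold apart. Of the reads from this start, 15, 16 and 17 nt forms made up 8.58%, 37.8% and 53.6% with DMSO and 7.40%, 42.6% and 50.0% with SB431542. Among all reads of 15 to 17 nt the shares were 20.1%, 30.5% and 49.5% with DMSO, and 20.5%, 30.4% and 49.1% with SB431542. Just outside the length rule, the 14 nt form had 2 and 1 reads and the 13 nt form 0 in both libraries, although 111724 and 65674 reads of 14 nt were present. The 17 nt limit of the sequences analysed leaves the far end of these fragments unseen.

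Shifting the window by a base removed most of the reads. The letters of miR-3473 preceded by a G had 109 and 52 reads (log2 -0.12, -0.64 to 0.36), those preceded by an A, as in Mir3473b itself, 14 and 8, and those preceded by a T, as in Mir3473e, 4 and 0. Preceded by a C, which neither hairpin has there, they had 16 and 1 reads, fewer with SB431542 (log2 -2.52, -8.45 to -0.38). With a pair of Gs before them 28 and 7 reads were found (log2 -0.99, -2.50 to 0.16). The T form at base 8 had 47 and 12 from that start (log2 -0.99, -2.08 to -0.10). The higher RPM with SB431542 was thus not seen for every start near the leading one. A start 1 base later had 15 and 6 reads. For the T form at base 8 the order was the opposite. The start 1 base earlier, with G, had 80 and 34 reads and the start shared with miR-3473 had 42 and 31. The earlier start therefore made up 65.6% of those reads with DMSO (56.4 to 73.9) and 52.3% with SB431542 (39.5 to 64.9), against 4.86% (4.01 to 5.83) and 2.99% (2.24 to 3.90) for the miR-3473 letters. The most read sequence of Mir1934, ggggctggTgagatgg, had 68 and 27 reads (log2 -0.38, -1.10 to 0.27), while gggctggTgagatggct had 20 and 9 and its 15 nt form 12 and 11. Without this leading sequence the log2 ratio of Mir1934 was 0.43 (-0.20 to 1.03), against 0.04 (-0.41 to 0.48) with it, and these intervals overlap.

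For the letters compared here, the number of reads did not run in parallel with the number of genes that hold them. The letters were chosen with both numbers known, so this is a description only. The miR-3473 letters from their own start were held by 521 genes and gave 4.10 reads per gene with DMSO and 3.24 with SB431542. The T form from the same start was held by 259 genes and gave 0.162 and 0.120. One base earlier the miR-3473 letters were in 327 genes, with 0.333 and 0.159 reads per gene, and the T form in 127 genes, with 0.630 and 0.268. These counts are of annotated transcripts, and copies in introns or between genes were not counted.

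Every member sequence but the single Mir1934 read lay in more than 5 other genes. The leading 17 nt sequence of the miR-3473 pair was in transcripts of 463 genes, of which 310 were protein coding, 88 lncRNA, 17 miRNA, 7 pseudogene and 1 another small RNA, Gm22514. In 140 protein-coding genes it lay in a 3′ UTR of a coding transcript, in 5 in coding sequence and in 4 in a 5′ UTR. Other coding genes held it in noncoding transcripts. The opposite strand of the same letters was in 472 genes, slightly more. In Mir1934 the leading sequence was in 127 genes (95 protein coding, 49 with a 3′ UTR match) with 114 antisense, and in Mir1946a in 288 genes (215 protein coding, 98 with a 3′ UTR match) with 332 antisense. Since the letters are identical in all of these, which RNA gave a read cannot be told apart.

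Of 32851 promoter windows of RefSeq, 300 bases each, 47 (0.143%) held the 15 letters GGGCTGGAGAGATGG on either strand, 14 on the strand of the gene and 33 on the other. The 15 letters AGGCAGGTGGATTTC were in 2 windows. Both are given only as a measure of how often the letters recur.

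**Figure D4:**
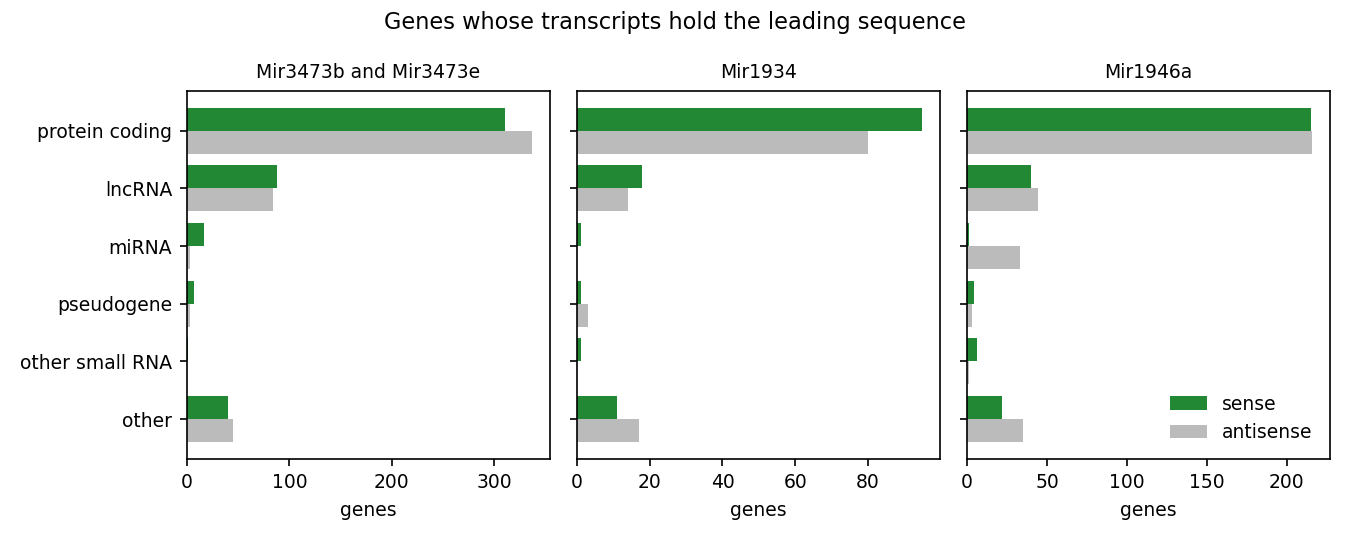
Number of genes, by class, whose GENCODE M21 transcripts hold the leading sequence of each hairpin in sense (green) or antisense (grey) orientation. Each panel has its own scale. Protein-coding genes make up most of both bars, 310 sense and 337 antisense for the miR-3473 pair.

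All 13 sequences of Mir3473b were also found in 12 small RNA or lncRNA genes, the first by symbol being 4930520O04Rik, 5930430L01Rik and Gm12976, and in 50 protein-coding genes, the first being 1110032A03Rik, 6030468B19Rik and Adamts18, a secreted metalloprotease. The 11 sequences of Mir3473e were all in 4 small RNA or lncRNA genes, the first by symbol D130009I18Rik, Gm26772 and Gm31805, and in 16 protein-coding genes, the first by symbol Ap1ar, Atp5g1 and Atp5l, the last of which encode subunits of mitochondrial ATP synthase. For Mir1934 9 of its 10 sequences were in 5 such genes, the first by symbol 2810403D21Rik, AC160336.1 and the small RNA gene Gm22388, and in 25 protein-coding genes, the first 9130230L23Rik, 9430038I01Rik and Abce1. For Mir1946a all 12 were in Mrps14, which encodes a mitochondrial ribosomal protein, and Rhno1, 8 were in Dnajb14 and 8 in the lncRNA Gm48914, and 5 each in Gm32401 and Gm26981. These genes are named only as holders of the letters.

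Among other miRNA hairpins 29 shared a member sequence. The likeness, measured as the share of all member reads held in common over both libraries, exceeded 90% for 15 of them. The highest were Gm24715, Gm25213 and Gm25991, with all 13 sequences of Mir3473b and 93.7% of the member reads, then Gm26339 with 93.3% and Gm22402 with 93.2%. The named relatives of miR-3473 had few reads. Mir3473a had 17 with DMSO and 6 with SB431542, Mir3473f 11 and 5, Mir3473d 8 and 4, and Mir3473c and Mir3473g 0 in both. Mir1946b had 1 and 6. Matching was exact, so reads of the leading sequence count for every hairpin that holds its letters and for no other hairpin.

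Reads beyond the hairpins were followed along the letters that most genes have around the leading sequence. From 20 bases before its start to 83 after, the majority letters of the 463 genes were matched by 2278 reads with DMSO and 1758 with SB431542. Of these, 2266 and 1751 began within 2 bases of the leading start, 0 in both libraries earlier than that, and 12 and 7 later. Antisense to the same letters there were 3 and 1 reads. The genes were chosen for the 17 bases of the leading sequence, where they are alike by construction. Over the 43 bases after it the majority letter was shared by a median of 73.3% of the genes, and over the 20 bases before it by 40.6%. Copies that differ from the majority were not counted, which lowers the counts away from the start.

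Around the leading sequence of Mir1946a the reads were spread. There 38 and 29 reads began within 2 bases of its start, 12 and 11 before that and 42 and 26 after it. The next most used start was 46 bases further on, with 16 reads with DMSO and 12 with SB431542. The 3 letters before its start were each shared by more than 90% of the 288 genes, so the leading sequence of Mir1946a lies inside the shared stretch. Over the 20 bases before its start the majority letter was shared by a median of 88.0% of these genes, and over the 43 bases after it by 87.7%. Both shares exceed those around the miR-3473 letters, so the spread of starts cannot be compared between them.

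**Figure D5:**
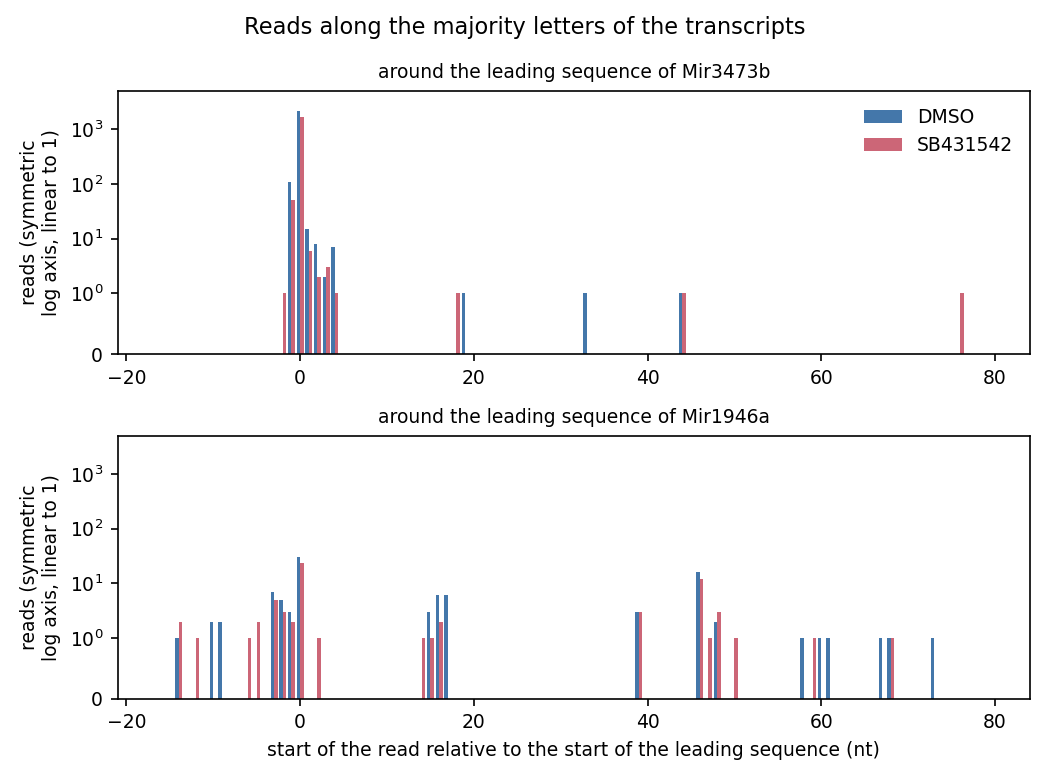
Reads of 15 to 17 nt by start (nt from the start of the leading sequence) along the majority letters of the genes that hold the leading sequence of Mir3473b (top, 463 genes) and Mir1946a (bottom, 288 genes), in the DMSO and SB431542 libraries; the read axis is symmetric log, linear to 1. In the top panel 2134 and 1690 reads begin at 0, fewer within 2 bases of it and hardly any farther off. In the bottom panel 30 and 23 begin at 0 with further starts on both sides. Only majority letters are matched. Outside the leading sequence a smaller share of genes has them in the top panel than in the bottom, so the spread cannot be compared between panels.

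The members were a minor part of the reads with repeated letters. Sequences found in more than 5 other genes numbered 3063 and had 26592 reads with DMSO and 15649 with SB431542, of which the members supplied 8.81% and 11.6%. The rest of these had a log2 ratio of 0.13 (0.10 to 0.16), against 0.56 (0.47 to 0.65) for the members among them. Of the 294 sequences found in more than 100 genes, the members supplied 80.2% and 76.6% of the reads. The remaining 268 of these had 577 and 549 reads (log2 0.86, 0.69 to 1.04), a value that a few sequences carried. The forms of aggcaggCggatttctg and the runs of A, 6 sequences singled out after their values were seen, had 173 and 285 reads, and the other 262 had 404 and 264 (log2 0.32, 0.09 to 0.55). Of the 60 sequences outside the members that had at least 50 reads and lay in more than 5 other genes, 30 were above 0 and 30 below, with a median of 0.05. The difference between the members and the rest was not tested. An effect of the treatment and a difference between library preparations cannot be told apart here.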

How the data were processed

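The deposited files give raw read counts per distinct sequence of 3 to 17 nt with its length, without normalization. Per the labels' protocols, 1 µg of TRIzol RNA per library was prepared with the TruSeq RNA kit of Illumina. Size selection, trimming and filters were not given in the sources used here. Build mm9, listed by the submitters' processing notes, bears on no value reported. Groups follow the sample titles.

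Sequences of 15 to 17 nt were matched exactly, over their full length and on both strands, to the GENCODE M21 transcripts (GRCm38), and genes holding each were counted. No genome sequence was used. Mature miRNAs and promoters came from RefSeq (GRCm38.p6), in which 3 of the 4 hairpins were found, with the same letters. Log2 ratios use reads per 1000000 reads of 15 to 17 nt and a pseudocount of 0.5 read, with exact conditional binomial intervals, and shares have Clopper-Pearson intervals. The floor for 0 reads is 3 reads. Hairpins with at least 50 reads form the background, and a call is a 2-fold ratio.

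The named sequences are the 3 most read in each hairpin and those with at least 5% of the member reads. The named genes are the 5 hairpins sharing most reads, the miR-3473 and miR-1946 relatives, and the 3 leading holders of each kind, ties broken by symbol. The relatives of the leading letters by start and base, and the variants in the closing section, were chosen after their values were seen. The members and lists were chosen with earlier results of these data known. Alternatives were other totals, edgeR and DESeq2 factors, a pseudocount of 5, lengths of 16 and 17 nt, limits on shared sequences, division among genes, leaving out the leading sequence, a GC correction, and minimums of 1, 20 and 200 reads. Matching and intervals were tested on simulated data. Python 3.11.15, numpy 2.4.6, scipy 1.17.1, pandas 2.3.3, matplotlib 3.10.9, R 4.3.3, edgeR 4.0.16 and DESeq2 1.42.0 were used, edgeR and DESeq2 for scaling factors only.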

Additional observations from a re-analysis of the deposited data

Results flagged for a closer look

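Outside the 4 hairpins, relatives of the member sequences and sequences with at least 50 reads in more than 100 genes were screened for more RPM with SB431542 than with DMSO. Only those that were higher are described here, and some relatives that were lower stand with the starts of the miR-3473 letters above. Lower relatives not given there include the T form of Mir1934 preceded by a T, with 4 reads with DMSO and 0 with SB431542. Preceded by a C it had 5 and 0, and the leading miR-3473 sequence with the substitution G1A had 2 and 0. The T form of Mir1934 preceded by an A, 1 base before the shared start, had 29.0 RPM with SB431542 and 12.1 with DMSO (15 and 12 reads). The leading sequence of miR-3473 with the substitution T17A had 17.4 and 8.08 RPM (9 and 8 reads) and was found in 10 genes. Its reads are few and no counting interval is given for it, so the size of the difference is uncertain. A relative of the Mir1946a sequence, aggcaggCggatttctg (T8C, the changed base in capitals, counted from the 5′ end of the Mir1946a sequence), lies in 405 genes and in no miRNA hairpin. It had 299 RPM with SB431542 and 96.9 with DMSO (155 and 96 reads), and its 16 nt form aggcaggCggatttct 83.1 and 39.4 RPM (43 and 39 reads). A run of 15 A, found in 2022 genes, had 87.0 and 15.1 RPM (45 and 15 reads). Each value rests on 1 library per group and has no replicate check.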

How the results depend on the processing

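The ratio of the 4 hairpins together stayed above 0 under all 11 alternatives that gave a value (0.49 to 1.46). So did that of Mir3473b under 10 (0.50 to 1.48) and that of Mir1946a under 10 (0.26 to 1.85). Several alternatives only rescale the same reads and are not independent of each other. For Mir1946a the interval included 0 at minimum lengths of 16 nt (0.73, -0.13 to 1.56) and 17 nt (0.26, -0.99 to 1.40). The ratio of Mir1934 lay above 0 under 5 and below under 4 (-0.08 to 0.93). Per miRNA read from sequences in at most 5 other genes, the values were 1.46 together, 1.48 for Mir3473b, 1.48 for Mir3473e, 0.93 for Mir1934 and 1.74 for Mir1946a. That total shifts each ratio by 0.89, while edgeR, DESeq2 and all-read totals shift it by -0.05, 0.06 and -0.05. Without sequences of another small RNA class the values rest on few reads. They were 1.24 together (-0.23 to 2.80, 8 and 10 reads) and -0.65 for Mir3473e (-6.69 to 2.27, 4 and 1 reads). Mir1946a stood at 1.85 (0.04 to 4.12, 4 and 8 reads). Divided among all genes the 4 together stood at 0.84, and Mir3473e without its leading sequence at 0.69. After the GC correction Mir1946a stood at 1.00, just past 2-fold. Hairpins at least 2-fold higher numbered 1 of 92. At a minimum of 20 reads they numbered 11 of 158, at 200 reads 0 of 54 and at 1 read 166 of 748. Of the 92 they numbered 0 with all reads or with edgeR factors, and 40 per miRNA read. Those at least 2-fold lower numbered 17 of 92. At the same minimums they numbered 38 of 158, 8 of 54 and 198 of 748, and per miRNA read 2 of 92. Limiting the members to sequences in at most 5 other genes left 1 read and no value, and some other settings left 3 reads or fewer in both libraries for single hairpins. No paired analysis was possible because each group has 1 library. Mir1946a, with 34 and 32 reads, is the value most limited by depth.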

Other observations

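The Mir1946a sequence and its T8C relative differed in level and in ratio. Counting forms of 15 to 17 nt from the same start, the Mir1946a letters had 30 reads in the DMSO library and 23 in the SB431542 library (log2 0.56, -0.30 to 1.39) and were held by 308 genes. The relative, with C in place of T, had 137 and 209 reads, 2.92-fold higher in the SB431542 library (log2 1.54, 1.23 to 1.87), and was held by 424 genes. Per gene holding the letters the relative gave 0.323 and 0.493 reads and the Mir1946a letters 0.0974 and 0.0747. The GC content of the 17 nt forms was 58.8% and 52.9%. No test of the difference between the ratios was made, with 1 library in each group, and the pair was chosen after its values were seen.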
